A study of Mus musculus with 13 samples.

Results

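The antigen presentation and immunoproteasome genes described here are 10 genes of 18193 measured. The class II members are H2-Aa, H2-Ab1, H2-Eb1, Cd74 and Ciita, and the others are Psmb8, Psmb9, Tap1 and B2m, which serve the class I pathway, and Ubd. They were chosen by name, and each was read from its probe set (a group of short oligonucleotides for 1 transcript) with the highest mean over the 13 arrays. All 10 were measured, and no filter on level was used. The arrays hold 8 liver tumours of mir-122 knockout mice, 3 at 11 months and 5 at 14 months, and 5 livers of wild type control mice, 2 at 11 months and 3 at 14 months. All mice had the B6/129 background. mir-122 is a microRNA that is abundant in hepatocytes. No knockout liver free of tumour was included in the arrays, so the knockout and the tumour cannot be told apart. The labels do not say that tumours came from separate mice, and the p-values measure the spread between these samples, which may in part be technical.

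Cells show peptides to T cells on 2 kinds of surface molecule. Class I molecules, on nearly every cell, carry peptides cut by the proteasome in the cytosol, pumped into the endoplasmic reticulum by the transporter Tap1/Tap2 and bound to a heavy chain held by B2m. Interferon gamma replaces catalytic subunits of the constitutive proteasome with those of the immunoproteasome, Psmb8 and Psmb9 among them. Class II molecules are pairs of an alpha and a beta chain, escorted by the invariant chain Cd74, and are made mainly by dendritic cells, macrophages and B cells under the transactivator Ciita. Ubd, also called FAT10, is a ubiquitin-like protein that marks proteins for the proteasome. It is induced by interferon gamma and tumour necrosis factor.

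Of the 10 members, 7 lie on chromosome 17, and Psmb9, Tap1, Psmb8, H2-Ab1, H2-Aa and H2-Eb1 follow one another there with Tap2 and H2-Ob among them. RefSeq promoter windows (GRCm38.p6, 250 bases before to 50 after a gene's start) were at hand for 7 members. These 5 stretches are shown because they hold the letters by which class II, interferon and NF-kappa B factors are known to bind, or a start shared by 2 members. Capitals mark the letters of the X box, Y box, interferon response element and kappa B motifs, which the next paragraph spells out.
H2-Aa, chr17:34287854-34287933, minus strand: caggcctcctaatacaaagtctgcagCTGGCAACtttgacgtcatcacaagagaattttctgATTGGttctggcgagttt
H2-Eb1, chr17:34305757-34305836, plus strand: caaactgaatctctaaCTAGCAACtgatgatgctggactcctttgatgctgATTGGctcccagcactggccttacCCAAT
B2m, chr2:122147537-122147646, plus strand: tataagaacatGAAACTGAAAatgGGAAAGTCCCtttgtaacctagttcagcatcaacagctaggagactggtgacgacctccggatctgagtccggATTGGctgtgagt
Ubd, chr17:37193832-37193891, plus strand: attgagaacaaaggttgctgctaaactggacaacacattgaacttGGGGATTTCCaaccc
Tap1 and Psmb9, chr17:34187331-34187555, plus strand: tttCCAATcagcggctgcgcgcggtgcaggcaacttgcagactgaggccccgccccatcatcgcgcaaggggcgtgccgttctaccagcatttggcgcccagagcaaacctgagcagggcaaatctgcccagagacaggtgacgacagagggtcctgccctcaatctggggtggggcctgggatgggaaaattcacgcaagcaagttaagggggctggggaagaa

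In the H2-Aa and H2-Eb1 stretches, X box letters (CTNGCAAC) were followed on the same strand by Y box letters in reverse (ATTGG for CCAAT), 28 bases later in H2-Aa and 27 bases later in H2-Eb1. Only 0.161% of 32851 promoter windows held both in this order within 50 bases. Both strands were searched for each motif by itself, and X box letters were in 3.42% of windows and Y box letters in 37.4%. B2m held an interferon response element (GAAA, any 2 bases, GAAA; 3.44% of windows) and, on the other strand, kappa B letters (GGG, any 2 bases, TTTCC; 1.63%). The same kappa B letters lay 15 to 6 bases before the start of Ubd. Tap1 and Psmb9 start 225 bases apart on opposite strands, so the last stretch serves both, and it held Y box letters. Y box letters were also in the B2m stretch and a second time in that of H2-Eb1. The Ubd window held them 222 to 218 and 134 to 130 bases before the start, outside the stretch shown. TGACG, the form bound by Creb family factors (20.8% of windows), was in the H2-Aa and B2m windows. It was also in the Psmb9 and Tap1 windows, as 1 site in the bases that they share. Matches of different motifs did not overlap in the members' windows. The motif letters were chosen with these windows in view, and a match is a description of the letters, not evidence of binding.

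Values are log2 levels from robust multi-array analysis (RMA), in which 1 unit is a 2-fold difference, and brightness cannot be compared between genes. The hepatocyte marker Alb was at the top of the scale in both tissues and averaged 14.64 ± 0.11 (SD, n = 8) in tumours and 14.65 ± 0.01 (SD, n = 5) in controls. On the first principal component of all probe sets (49.5% of the variance) the controls lay between -79.4 and -64.5 and 5 tumours between 67.8 and 92.2. KO_tumor_11M replicates 1 and 2 and KO_tumor_14M replicate 4 lay between, at -2.74, -17.8 and 1.55. A setting without these 3 tumours was chosen from these same values. Leaving out the tumours most like the controls tends to widen differences, so a call gained there is no added support. Of the controls, control_liver_11M replicate 1 and control_liver_14M replicate 3 were nearly identical, with 63 probe sets more than 2-fold apart against 485 to 1315 in the other control pairs. For some genes and lists whose calls changed without these arrays, the values or the count are also given. Other calls changed too and are not listed.

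Class II genes were higher in the tumours. With the ages weighted equally, all 5 class II members rose (adjusted p under 0.05 in a limma fit over all genes), where 10.3% of all genes rose. Their median log2 fold change was 1.97, against -0.05 over all genes. H2-Aa, H2-Ab1, H2-Eb1 and Cd74, called the 4 chains below, rose by 1.93 to 2.24, and in each of them every tumour lay above every control. Of all genes, 6.22% had all tumours above all controls.

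H2-Ab1, a beta chain, had levels of 7.99 and 8.61 in the 11-month controls and 7.51, 8.20 and 8.06 in the 14-month controls. Tumours had 9.48, 11.13 and 10.71 at 11 months and 10.07, 10.07, 10.40, 10.38 and 10.37 at 14 months. The lowest tumour, KO_tumor_11M replicate 1, was 0.87 above the highest control, while the 14-month tumours lay close together. Its log2 fold change was 2.24 (SE 0.26, adjusted p = 0.000356), a 4.71-fold rise. It ranked 168 from the highest of all genes.

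H2-Aa, an alpha chain, had 9.50 and 10.17 in the controls at 11 months and 9.29, 9.86 and 9.39 at 14 months. In tumours it had 10.71, 12.13 and 12.08 at 11 months and 11.44, 11.41, 11.85, 11.76 and 11.81 at 14 months. The groups did not overlap, with KO_tumor_11M replicate 1 again the lowest tumour. H2-Aa rose by 1.97 on the log2 scale (SE 0.25, adjusted p = 0.00062). Its probe set and several others of H2-Aa and H2-Ab1 carry a suffix that Affymetrix gives to sets whose probes can match more than 1 transcript.

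H2-Eb1, a beta chain of the second class II pair, had control levels of 8.60 and 9.06 at 11 months and 8.15, 8.88 and 8.62 at 14 months. Its tumour levels were 9.80, 11.18 and 11.05 at 11 months and 10.21, 10.19, 10.72, 10.89 and 10.80 at 14 months. No tumour reached down to the controls. H2-Eb1 rose by 1.93 on the log2 scale (SE 0.25, adjusted p = 0.000789). H2-Ea, the alpha chain of the second pair, did not rise. It gave -0.25 (adjusted p = 0.0892), and -0.35 (adjusted p = 0.0276) after repeated quantile normalisation. Whether this pair forms in these tissues was not tested.

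Cd74, which blocks the peptide groove of new class II pairs and guides them to endosomes, was even among the controls: 9.22 and 9.39 at 11 months and 8.97, 9.39 and 9.36 at 14 months. The tumours spread far more, with 10.06, 12.34 and 11.57 at 11 months and 11.00, 11.17, 11.08, 11.55 and 11.21 at 14 months. The 2.28 between the lowest and the highest tumour was more than the fold change itself, which was 1.99 (SE 0.31, adjusted p = 0.00182). Both extremes were 11-month tumours.

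**Figure D1:**
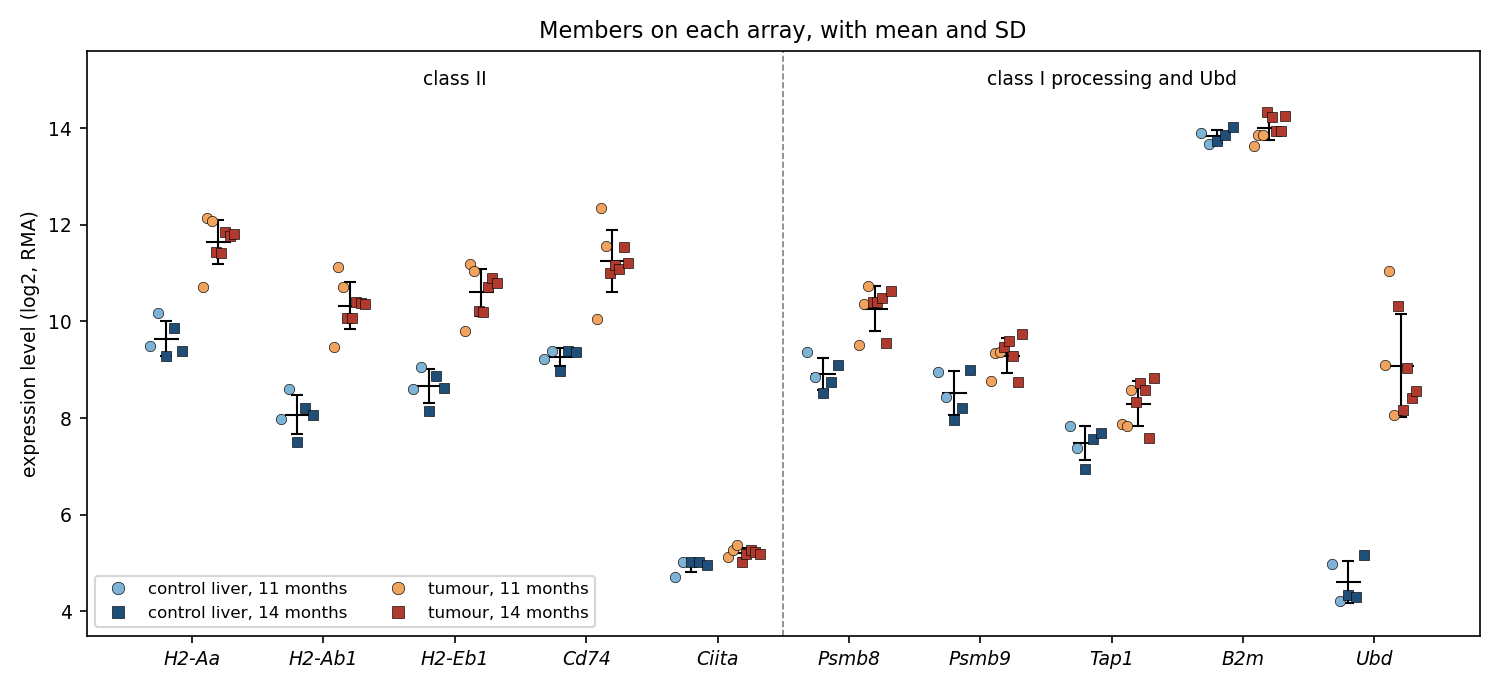
Log2 level of each member on every array (points; circles 11 months, squares 14 months), with the mean and SD of the 5 controls and the 8 tumours (bars). Tumours and controls do not overlap for H2-Aa, H2-Ab1, H2-Eb1, Cd74, Psmb8 and Ubd, they overlap for Psmb9, Tap1 and B2m, and 1 of 8 tumours overlaps the controls for Ciita.

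Ciita, the transactivator whose presence switches class II genes on, moved little. It had 4.72 and 5.03 in the 11-month controls and 5.02, 5.03 and 4.97 in the 14-month controls. Tumours had 5.12, 5.28 and 5.38 at 11 months and 5.02, 5.18, 5.28, 5.23 and 5.19 at 14 months. KO_tumor_14M replicate 1 lay within the controls and the other 7 tumours above all of them. Its log2 fold change was 0.28 (SE 0.08, adjusted p = 0.0339), and the adjusted p was 0.162 without control_liver_11M replicate 1, the lowest control. These levels lie around 5.17, the median of all probe sets, where much of a signal can be background. Of the 2 other Ciita probe sets, 1 gave 0.39 (adjusted p = 0.0343) and the other 0.11 (adjusted p = 0.579).

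The chains kept their calls in all 23 alternative settings run with the ages combined. Ciita passed in 12 of the 22 settings that held it. Without both nearly identical controls the chains' log2 fold changes lay between 1.78 for H2-Aa and 2.12 for H2-Ab1 (adjusted p 0.00932 to 0.0249), and Ciita gave 0.20 (adjusted p = 0.234). Without the 3 tumours that lay between the clusters the chains gave 2.07 to 2.36 and Ciita 0.33 (adjusted p = 0.0433). The other probe sets of H2-Aa and H2-Ab1 gave 1.79 to 2.21 and passed as well.

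Other class II genes rose less evenly. Of 16 measured partners in class II assembly, loading and transcription, 6 rose and 0 fell, with a median log2 fold change of 0.47. Ctss, the cathepsin that trims Cd74 to its last fragment, rose by 1.72 (SE 0.23, adjusted p = 0.00092). H2-DMa, a chain of the molecule that exchanges that fragment for peptide, rose by 1.54 (SE 0.26, adjusted p = 0.00289). Marchf1, a ubiquitin ligase that removes class II from the surface of dendritic and B cells, rose by 1.51 (SE 0.22, adjusted p = 0.00154). In all 3 genes every tumour lay above every control. Among the remaining calls were Ifi30, a thiol reductase of the endosome (0.99), Lgmn, an endosomal protease (0.73), and Nfya, a subunit of the factor that binds the Y box (0.68, and 0.52 with adjusted p = 0.0967 without both nearly identical controls). The other subunits of the Y box factor, Nfyb and Nfyc, gave -0.53 (adjusted p = 0.3) and -0.05 and did not pass. Nfyb passed as lower without the 3 tumours between the clusters (-1.13, adjusted p = 0.00356) and without KO_tumor_11M replicate 2 (-0.89, adjusted p = 0.0149). Of the regulatory factor X subunits that bind the X box, Rfx5 gave 0.38 (adjusted p = 0.0528), Rfxap -0.16 and Rfxank -0.01, and 0 of the 3 passed. Of the 16 partners, 8 passed without the 3 tumours between the clusters and 5 without both nearly identical controls.

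Markers of leukocytes, like the class II chains, were higher in the tumours. Whether markers and chains moved together from array to array was not tested. In control_liver_14M replicate 1 the mean of the chains was 8.48 and that of the markers 7.86, against 9.31 and 7.19 in control_liver_11M replicate 2. Among the tumours, KO_tumor_11M replicate 1 was the lowest in both means, at 10.01 and 8.31. KO_tumor_11M replicates 2 (11.7 and 9.96) and 3 (11.35 and 10.15) were the highest in both. KO_tumor_14M replicate 5 had 11.05 for the chains but 8.75 for the markers. All 5 markers of leukocytes in general rose (Coro1a 2.19, Cd52 2.13, Ptprc 2.04, Laptm5 1.72 and Cd53 1.58), and their summed level on the log2 scale was 10.67 to 12.56 in tumours and 9.58 to 10.27 in controls. In bulk samples more cells of a type and more RNA per cell cannot be told apart. The mean of the 4 chains minus the mean of the 5 leukocyte markers was 1.21 to 2.29 in tumours and 0.62 to 2.12 in controls. These ranges overlap, and the part of leukocytes in the class II levels was not tested.

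By cell type, 4 of 13 macrophage and Kupffer cell markers rose (Cd68 1.94, Lyz2 1.64, C1qb 1.37 and C1qa 1.25) and 1, the scavenger receptor Cd163, fell by 4.07. The median log2 fold change of the 13 was -0.69. Adgre1 gave 0.91, Csf1r 0.27, Mrc1 -0.69, Marco -1.09, Cd5l -1.28, Vsig4 -1.86 and Timd4 -1.87, and none of these passed. The summed level of the 13 markers was 12.45 to 14.02 in tumours and 12.76 to 13.06 in controls. Clec4f, which marks resident Kupffer cells, averaged 7.25 ± 1.73 (SD, n = 8) in tumours and 9.56 ± 0.09 (SD, n = 5) in controls (adjusted p = 0.0624). Without the 3 tumours between the clusters 12 of the 13 markers passed, and 8 without KO_tumor_11M replicate 2 or without KO_tumor_14M replicate 4. These counts take rises and falls together. Of 8 dendritic cell markers, Itgax rose by 2.0 and Batf3 by 1.43 (adjusted p = 0.0473). The call for Batf3 was lost without any 1 of the 5 controls (adjusted p 0.0699 to 0.132). Xcr1, Cd209a, Ccr7 and Siglech gave 0.31 to 0.36 and did not pass. The summed level of the 8, in which bright genes weigh most, was 8.21 to 9.65 in tumours and 7.80 to 7.95 in controls. Flt3 and Zbtb46 of that list lay between 5.08 and 5.71 on all arrays. Without both nearly identical controls 0 of the 8 dendritic cell markers passed.

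Lymphocyte markers did not pass over all arrays. Of 5 B cell markers 0 passed, with Cd79b at 0.45, Ms4a1 at 0.14, Cd79a at 0.02 and Pax5 at -0.23. Jchain, of plasma cells, gave 1.27 (adjusted p = 0.117), and it passed at 1.69 (adjusted p = 0.0273) without KO_tumor_11M replicate 1. Their summed level was 7.74 to 9.50 in tumours and 7.51 to 8.32 in controls. Of 9 T and natural killer cell markers 0 passed, and their summed level was 8.32 to 8.93 in tumours and 8.18 to 8.39 in controls. At unadjusted p under 0.05 limma gave 2 of these B cell markers and 3 of these T and natural killer cell markers. Without the 3 tumours between the clusters, or without KO_tumor_11M replicate 1 alone, 4 of the 9 passed. Of 4 bile duct markers 0 passed, with Sox9 at 0.38, Krt7 at 0.14, Krt19 at 0.06 and Epcam at -0.04.

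Markers of sinusoidal endothelium moved in both directions. Of 6, Lyve1 rose by 2.24 and Pecam1 by 0.92, while the scavenger receptor Stab2 (-1.13, adjusted p = 0.0755), the lectin Clec4g (-2.0, adjusted p = 0.0888), Fcgr2b (-0.45) and Kdr (-0.24) did not pass, and the median was -0.35. Without the 3 tumours between the clusters Clec4g (-3.51, adjusted p = 0.00166) and Stab2 (-1.92, adjusted p = 0.000718) passed as lower, and Lyve1 gave 1.64 (adjusted p = 0.0683). Lyve1 (2.43, adjusted p = 0.0771) and Pecam1 (1.01, adjusted p = 0.139) missed the threshold without both nearly identical controls, and without control_liver_11M replicate 2, 0 of the 6 passed. Of 8 hepatocyte markers Asgr1 fell by 1.12, where 9.81% of all genes fell, and the others did not pass. Cyp2e1 gave -2.81 (adjusted p = 0.162), at 6.91 to 14.10 in tumours and 13.98 to 14.17 in controls. Apoa1 gave -0.59 (adjusted p = 0.12), and the rest -0.28 to 0.0. The call for Asgr1 was lost without any 1 of 4 controls, all but control_liver_14M replicate 3 (adjusted p 0.0524 to 0.0852), and without both nearly identical controls (adjusted p = 0.122).

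Psmb8 rose clearly among the class I processing genes, and Psmb9 and Tap1 only just. With the ages combined, 4 of the 5 genes in this group rose, Ubd among them, where 10.3% of all genes rose. Their median log2 fold change was 0.75, against -0.05 over all genes.

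Psmb8, the chymotrypsin-like subunit, had 9.37 and 8.85 in the 11-month controls and 8.51, 8.74 and 9.09 in the 14-month controls. The tumours had 9.51, 10.37 and 10.74 at 11 months and 10.40, 10.41, 10.49, 9.56 and 10.63 at 14 months. KO_tumor_11M replicate 1 and KO_tumor_14M replicate 4 sat 0.14 and 0.20 above the highest control, and the other 6 tumours at 10.37 or more. The log2 fold change was 1.31 (SE 0.24, adjusted p = 0.00428), and it passed in all 23 alternatives. A dim second probe set at a mean of 3.81 gave 0.33 (adjusted p = 0.0763).

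Psmb9, the subunit that takes the place of Psmb6, had 8.95 and 8.44 in the controls at 11 months and 7.96, 8.22 and 9.0 at 14 months. In the tumours it had 8.76, 9.34 and 9.37 at 11 months and 9.48, 9.59, 9.29, 8.75 and 9.74 at 14 months. The same 2 tumours fell within the controls, and the other 6 lay above them. The log2 fold change was 0.72 (SE 0.22, adjusted p = 0.0419). It passed in 11 of 23 alternatives, with a largest adjusted p of 0.164 without control_liver_11M replicate 2.

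Tap1, which starts 225 bases from Psmb9, had 7.84 and 7.39 in the 11-month controls and 6.94, 7.56 and 7.70 in the 14-month controls. Tumours had 7.88, 7.83 and 8.58 at 11 months and 8.33, 8.73, 8.59, 7.59 and 8.82 at 14 months. KO_tumor_11M replicate 2 and KO_tumor_14M replicate 4 overlapped the controls, and 6 tumours did not. The log2 fold change was 0.75 (SE 0.24, adjusted p = 0.0457), and it passed in 9 of 23 alternatives, with adjusted p = 0.165 without control_liver_11M replicate 2 and 0.0898 without both nearly identical controls. The mean of its probe sets gave 0.08 (adjusted p = 0.591). Of 3 dimmer Tap1 probe sets, 1 gave 0.22 (adjusted p = 0.315) and 2, at mean levels of 2.79 and 3.17, gave the opposite direction, -0.27 (adjusted p = 0.0566) and -0.39 (adjusted p = 0.0338).

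B2m, the light chain of every class I molecule, was near the top of the scale on all arrays. It had 13.89 and 13.67 in the 11-month controls and 13.73, 13.85 and 14.02 in the 14-month controls, and 13.62, 13.85 and 13.86 in 11-month tumours. In 14-month tumours it had 14.33, 14.23, 13.95, 13.95 and 14.26. Tumours and controls overlapped, and the log2 fold change of 0.14 (SE 0.10, adjusted p = 0.347) did not pass. The highest value of any probe set was 14.58 to 14.84 by array, so a rise of B2m had little room to show.

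**Figure D2:**
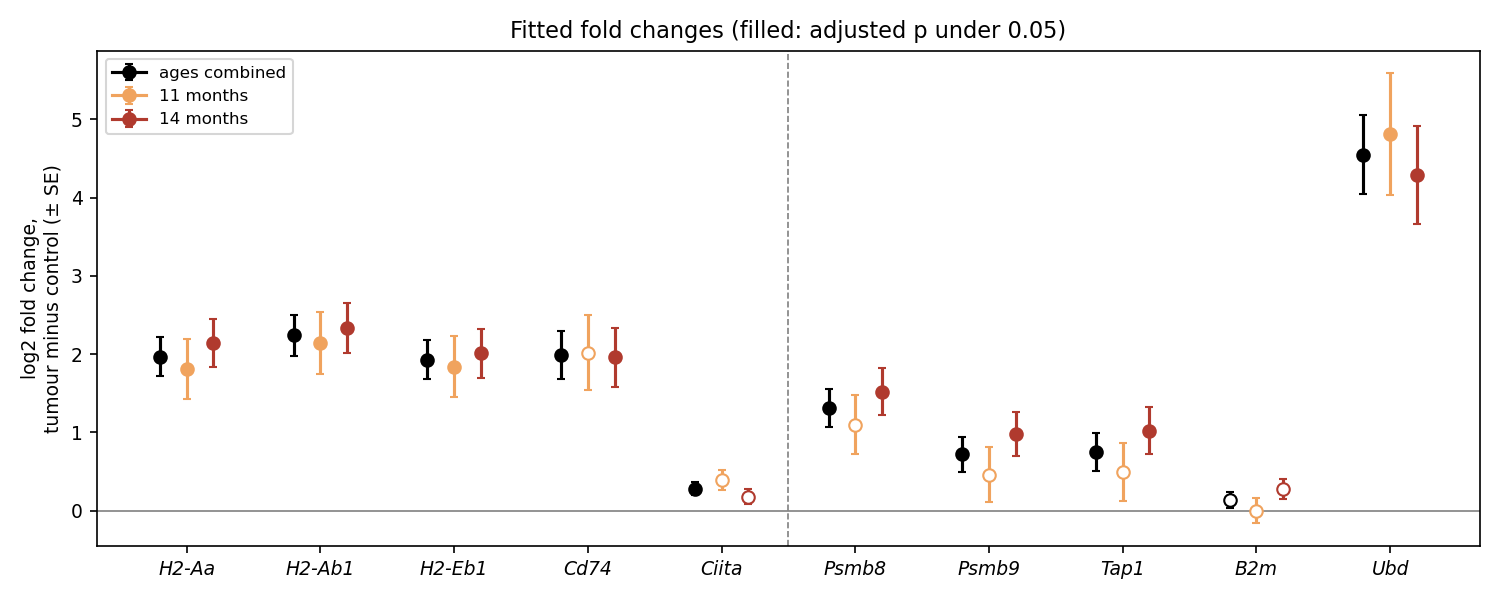
Log2 fold change of each member, tumour minus control, with its SE, for the ages combined (black), 11 months (orange) and 14 months (red); filled points have an adjusted p under 0.05. Ubd stands at 4.55 with the ages combined, the chains near 2 and Psmb8 at 1.31, and the error bars of the ages overlap for each member.

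The other class I genes moved by less than 1. Of 13 measured partners, 4 rose and 1 fell, with a median of 0.23. H2-M3, a class I molecule that shows formylated peptides, rose by 0.90 (SE 0.17, adjusted p = 0.00556), and the classical heavy chain H2-D1 by 0.62 (SE 0.17, adjusted p = 0.025). Tapbp, tapasin, which holds class I at the transporter, rose by 0.60 and Tap2, the partner of Tap1 in the transporter, by 0.55. H2-Q10, a secreted class I molecule made by hepatocytes, fell by 0.58 (adjusted p = 0.00551), with every tumour below every control. The classical heavy chain H2-K1 gave 0.23 (adjusted p = 0.253), and Nlrc5, the class I transactivator, gave 0.12 (adjusted p = 0.744). The probe sets of H2-D1 and H2-K1 also carry a suffix for probes that can match more than 1 transcript. By the mean of its probe sets H2-D1 gave 0.29 (adjusted p = 0.174). Its call was also lost without control_liver_11M replicate 2, control_liver_14M replicate 1 or 2, or KO_tumor_11M replicate 3 (adjusted p 0.053 to 0.123). Of these 13 genes, 3 passed without control_liver_11M replicate 2 and 2 without both nearly identical controls, where H2-M3 (adjusted p = 0.0719), H2-Q10 (0.0502) and Tap2 (0.0891) were among those lost.

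Within the proteasome the change was uneven. Psme1, a subunit of the PA28 activator, rose by 0.87 (SE 0.17, adjusted p = 0.00659). Psmb10, the third interferon-inducible subunit, gave 0.47 (SE 0.22, adjusted p = 0.149), but passed at 0.69 (adjusted p = 0.0153) without the 3 tumours between the clusters and at 0.67 (adjusted p = 0.0155) without KO_tumor_11M replicate 1. Pomp, an assembly factor, gave 0.11. Of 16 constitutive subunits and activators 5 rose and 1 fell, with a median of 0.09. Psma7 rose by 0.72 and Psmb5 by 0.59, and Psme4, another activator, fell by 0.60. Of these 16 genes only 1 passed without control_liver_11M replicate 1, without replicate 2 or without both nearly identical controls, and 3 without control_liver_14M replicate 1. Without the 3 tumours between the clusters 7 passed.

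Each immunoproteasome subunit was then set against the constitutive subunit it replaces on the same array. The log2 difference is no ratio of subunits, since probe sets differ in brightness, but its shift between groups can be compared. Psmb9 minus Psmb6 averaged -1.39 ± 0.26 (SD, n = 8) in tumours and -2.23 ± 0.39 (SD, n = 5) in controls. It was above every control in 7 of 8 tumours, all but KO_tumor_14M replicate 4. The shift of 0.81, from a log2 fold change of 0.72 for Psmb9 and -0.09 for Psmb6, had p = 0.00357 in a two-sided exact permutation test within ages (0.0107 adjusted over 3 pairs by Benjamini-Hochberg). The smallest p this test allows is 0.00179. With any 1 array left out the shift was 0.69 to 0.95 (adjusted exact permutation p 0.00857 to 0.0286).

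Psmb8 minus Psmb5 averaged -1.15 ± 0.54 (SD, n = 8) in tumours and -1.87 ± 0.31 (SD, n = 5) in controls. Both subunits rose, Psmb8 by 1.31 and Psmb5 by 0.59. The shift of 0.72, with 6 of 8 tumours above all controls, had an exact permutation p = 0.0429 and did not hold after adjustment (0.0643). It passed without both nearly identical controls, at 0.90 (adjusted exact permutation p = 0.0357), and without the 3 tumours between the clusters, at 1.01 (adjusted exact permutation p = 0.0143). With 1 array left out it ran from 0.62 to 0.93, and it passed without control_liver_11M replicate 1, KO_tumor_11M replicate 1 or KO_tumor_14M replicate 4. Psmb10 minus Psmb7 shifted by 0.20, with 4 of 8 tumours above all controls (exact permutation p = 0.493). In the controls this last difference was between -2.97 and -2.61, and in the tumours between -3.42 and -1.85.

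**Figure D3:**
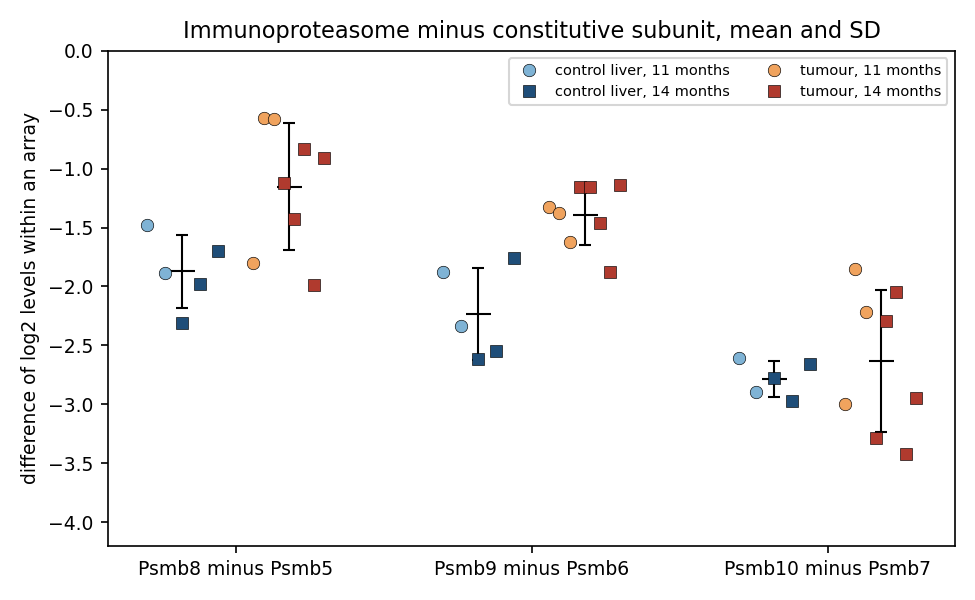
Difference of log2 levels within each array between an immunoproteasome subunit and its constitutive counterpart, with the mean and SD of 5 controls (left of each pair) and 8 tumours (right). For Psmb9 minus Psmb6, 7 of 8 tumours lie above all controls, while the tumours spread to both sides of the controls for Psmb10 minus Psmb7.

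Ubd changed more than any other member. The controls had 4.98 and 4.22 at 11 months and 4.35, 4.30 and 5.16 at 14 months. The tumours had 9.09, 11.05 and 8.07 at 11 months and 10.32, 8.16, 9.04, 8.42 and 8.56 at 14 months. The lowest tumour was 2.91 above the highest control. The controls are below 5.17, the median of all probe sets, so the fold change may be understated. It was 4.55 on the log2 scale (SE 0.50, adjusted p = 0.000315), or 23.42-fold, and ranked 10 of 18193. It was 3.94 without the 3 tumours that lay between the clusters, 4.88 without both nearly identical controls, and past the threshold in all 23 alternatives.

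Among genes of Ubd conjugation, Uba6, which activates Ubd, rose by 0.68 (SE 0.09, adjusted p = 0.00092). Sqstm1, an autophagy receptor that Ubd can bind, rose by 0.71 (SE 0.15, adjusted p = 0.0073). In both, every tumour lay above every control. Ube2z, the conjugating enzyme, gave 0.18 (adjusted p = 0.312), and 0.34 (adjusted p = 0.0439) without the 3 tumours between the clusters. Without both nearly identical controls Sqstm1 gave 0.74 (adjusted p = 0.053), and Uba6 passed.

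Genes of the interferon gamma response were higher in part. Of 18 measured, 9 rose and 1 fell, with a median of 0.52. Of the 18, 4 passed without control_liver_11M replicate 2, 7 without both nearly identical controls and 11 without the 3 tumours between the clusters. Cxcl10, a chemokine that draws T cells, rose by 3.46 (SE 0.76, adjusted p = 0.0098) and Gbp2, a guanylate-binding protein, by 2.32 (SE 0.50, adjusted p = 0.00879). Gbp3 of the same family rose by 1.83 (SE 0.59, adjusted p = 0.0488, and 0.125 without both nearly identical controls). Without control_liver_11M replicate 2 the adjusted p was 0.0614 for Cxcl10, 0.0502 for Gbp2 and 0.146 for Gbp3. In each of these genes tumours and controls overlapped. Irf2, known as an antagonist of Irf1, fell by 0.98 (adjusted p = 0.00202), with every tumour below every control. Irf1 averaged 8.74 ± 0.30 (SD, n = 8) in tumours and 9.34 ± 1.33 (SD, n = 5) in controls and did not pass (adjusted p = 0.389). Its 2 high controls were the nearly identical pair, at 10.82 and 10.73, with the others at 8.23, 8.75 and 8.18, and without that pair its log2 fold change turned from -0.59 to 0.44 (adjusted p = 0.204). Ifng lay between 2.52 and 2.98 on all arrays, close to the lowest values measured.

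**Figure D4:**
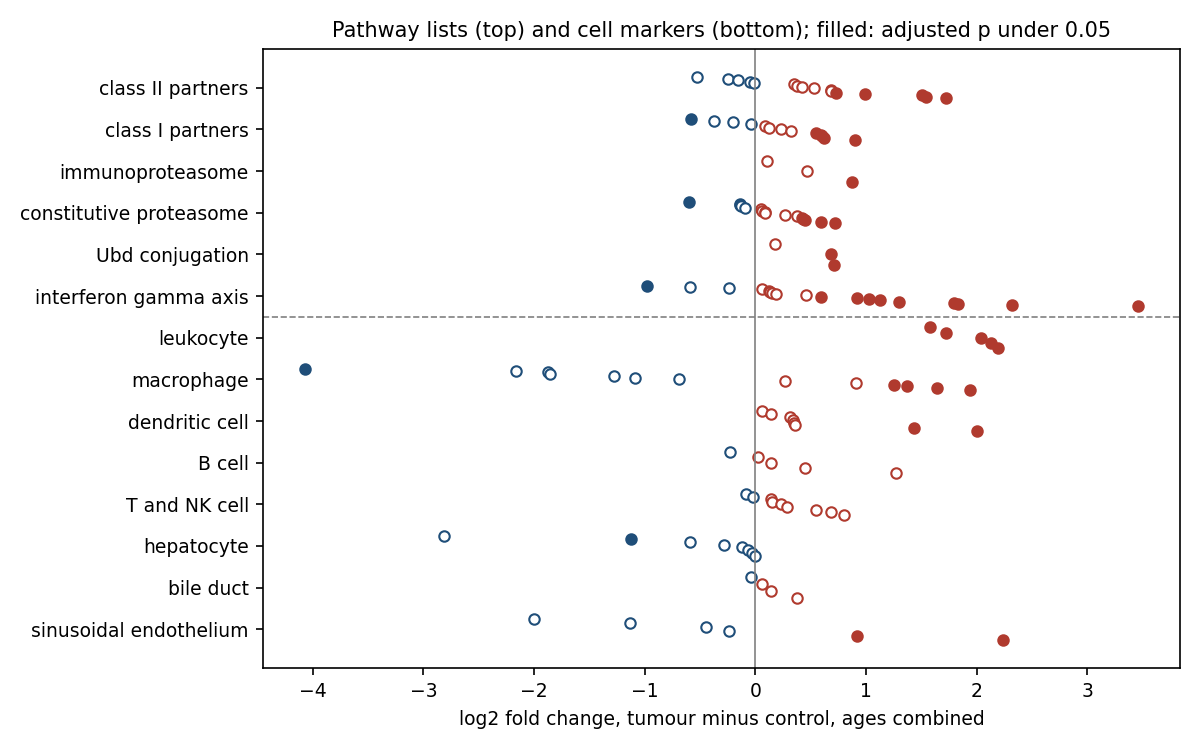
Log2 fold change (ages combined) of each measured gene in the pathway lists (above the dashed line) and marker lists (below it); red is higher and blue lower in tumours, and filled points have an adjusted p under 0.05. All 5 leukocyte markers rose, and 0 of the B cell and of the T and natural killer cell markers passed.

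By age, the question was whether the difference from controls was there at 11 months and whether it differed at 14 months. At 11 months 4 of 10 members rose, H2-Aa, H2-Ab1, H2-Eb1 and Ubd, where 1.31% of all genes rose. H2-Ab1 gave 2.14 (SE 0.40, adjusted p = 0.0279), H2-Aa 1.81 and H2-Eb1 1.84 (adjusted p = 0.0428 in both), and Ubd 4.81 (SE 0.78, adjusted p = 0.0176). Cd74 gave 2.02 (SE 0.48), a larger value than H2-Aa, with adjusted p = 0.0604. Psmb8 gave 1.10 (adjusted p = 0.169), Psmb9 0.46 (adjusted p = 0.551), Tap1 0.49 (adjusted p = 0.557) and Ciita 0.39 (adjusted p = 0.156). With 2 controls at this age the count was 0 without either control_liver_11M replicate 1 or replicate 2, and 6 without KO_tumor_11M replicate 1.

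At 14 months 8 of 10 members rose, all but Ciita and B2m, where 8.37% of all genes rose. Chains gave 2.33 for H2-Ab1, 2.14 for H2-Aa, 2.01 for H2-Eb1 and 1.96 for Cd74 (adjusted p 0.00192 to 0.00882). Psmb8 gave 1.52 (SE 0.30, adjusted p = 0.00972), Tap1 1.02 (SE 0.30, adjusted p = 0.0419), Psmb9 0.98 (SE 0.28, adjusted p = 0.0386) and Ubd 4.29 (SE 0.63, adjusted p = 0.00263). Ciita gave 0.18 (adjusted p = 0.246) and B2m 0.28 (adjusted p = 0.149). Without control_liver_14M replicate 1, the lowest control for 7 of the members, 5 passed.

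The age difference itself did not pass for any member in limma, and 0% of all genes did. At unadjusted p under 0.05 it had 0 members and 544 of all genes. The differences of the fold changes, 14 minus 11 months, ran from -0.51 (SE 1.01) for Ubd to 0.53 (SE 0.47) for Tap1, with Psmb9 at 0.51 (SE 0.44) and Psmb8 at 0.42 (SE 0.48). With errors of this size a change by age of the same order could not be detected. Between tumours of 14 and 11 months 0 members passed, against 0.0055% of all genes, and B2m alone had an unadjusted p under 0.05, at 0.37 (adjusted p = 0.776). Between controls of the 2 ages 0 members passed at either level, and 0% of all genes passed after adjustment.

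The tumours did not rank alike in the groups of members. KO_tumor_11M replicate 2 was the highest tumour for all 4 chains and for Ubd, but ranked 6 of 8 for Psmb8, 5 for Psmb9 and 7 for Tap1. KO_tumor_14M replicate 4 also ranked higher for the chains, at 3 to 5, than for the processing genes, at 7 for Psmb8 and 8 for Psmb9 and Tap1. KO_tumor_11M replicate 1 was the lowest for the chains and for Psmb8 but ranked 3 for Ubd. KO_tumor_11M replicate 3 was the highest for Psmb8 and the lowest for Ubd.

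**Figure D5:**
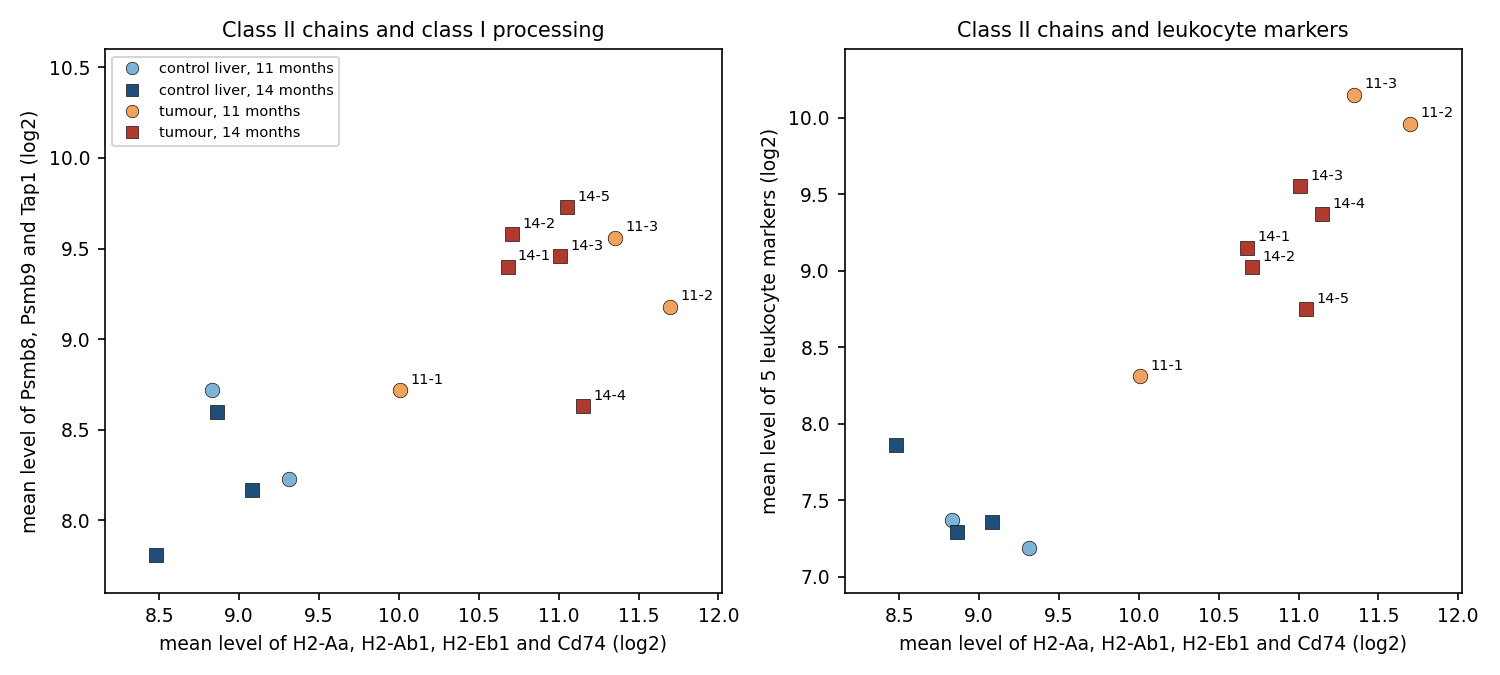
Mean log2 level of H2-Aa, H2-Ab1, H2-Eb1 and Cd74 on each array against the mean of Psmb8, Psmb9 and Tap1 (left) and of 5 leukocyte markers (right); tumours carry their age and replicate number. KO_tumor_14M replicate 4 (14-4) has a chain mean of 11.15 with a Psmb8, Psmb9 and Tap1 mean of 8.63, within the controls' range of 7.81 to 8.72.

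Over the 8 tumours, each pair of members was correlated, 45 pairs in all. The 6 pairs of chains had Pearson's r of 0.88 to 0.96. For H2-Aa and H2-Ab1 r was 0.95 (exact permutation p = 7.44e-05, adjusted 0.00335) and Spearman's rho 0.98 (exact permutation p = 0.000397, adjusted 0.0179). Without the 2 tumours farthest from the median of H2-Aa, r was 0.92. In each pair the farthest tumours were taken by the gene that comes first in the order of the members. Over all 6 pairs r without the 2 farthest tumours was 0.71 to 0.95. All 6 passed after adjustment by r, with the largest adjusted exact permutation p at 0.0253. By rho 3 of the 6 did not pass: H2-Aa with H2-Eb1 (adjusted exact permutation p = 0.0513), and Cd74 with H2-Aa and with H2-Ab1 (0.14 in both).

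Psmb8, Psmb9 and Tap1 had r of 0.81 to 0.90 with one another, with adjusted exact permutation p of 0.0627 to 0.0661. Without the 2 farthest tumours r was 0.14 to 0.56. Leaving out extremes also narrows the range, which lowers r, so whether these relations rest on those tumours cannot be told. Chains and these 3 genes had r of -0.12 to 0.62, and Ubd had 0.07 to 0.29 with the chains and -0.39 to 0.04 with Psmb8, Psmb9 and Tap1. None of these passed after adjustment. Whether r differed between the groups of pairs was not tested.

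Among 9087 genes above the median level, those most like the mean of the chains over the 8 tumours by Pearson's r were Celf2 (0.973), Hyou1 (0.954), Enpp5 (0.951), Wasf2 (0.943) and Atp1b3 (0.940). For the mean of Psmb8, Psmb9 and Tap1 they were Tlk2 (0.981), Zbp1 (0.979), Nr4a1 (0.976), Gtf2f1 (0.974) and Abt1 (0.973). For Ubd they were Tgfbr3 (0.945), Pitpnc1 (0.927), Mafk (0.925), Aacs (0.915) and Nsg1 (0.909). These are the highest of many values over 8 tumours and are given as a description. Of the 15 genes, Zbp1, a sensor of nucleic acids that interferon induces, rose in tumours by 1.71 (adjusted p = 0.00861), Wasf2, an actin regulator, rose by 0.48 (adjusted p = 0.00984), and the other 13 did not pass.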

How the data were processed

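RNA of frozen liver tissue was hybridised to 13 one-colour Affymetrix arrays, per the labels' protocols. The deposited values are log2 levels made by the authors with RMA in Partek software, per the submitters' processing notes; its settings are not given there. Of 45101 probe sets, 34945 name 1 gene (platform annotation of 2016), giving 18193 genes, each read from its brightest probe set. One limma model (limma 3.58.1, R 4.3.3; lmFit, eBayes) held a mean per genotype and age for all arrays. Benjamini-Hochberg adjustment ran over every gene, with a cutoff of 0.05. Fold changes weigh the ages equally and can differ from differences of printed means. The fit was tested on simulated data. Beside the members, the text names for each list the 3 largest called changes and the largest called one in the other direction, all genes of lists of 6 or fewer, and the 5 most like each group. Names beyond this rule were chosen after their values were seen. They were Ifi30, Lgmn, the Nfy and Rfx subunits, H2-Ea, H2-K1, Nlrc5, Tap2, Psmb6, Psmb7, Irf1 and Ifng. Flt3, Zbtb46, Xcr1, Cd209a, Ccr7, Siglech, Cyp2e1, Apoa1 and Alb were others. The macrophage and Kupffer cell markers other than Cd163, Cd68 and Lyz2 were among them. One further motif that was searched is not reported here. Members, lists and tests were chosen with earlier results of these data known. Alternatives were other probe sets or their mean, repeated quantile normalisation, arrays shifted to 1 median, trended robust eBayes, array weights, brighter genes only, no age term, 1 age only, averaged replicates and arrays left out. Python 3.11.15, pandas 2.3.3, scipy 1.17.1 and matplotlib 3.10.9 were used. The number of arrays limits the precision. Replicate numbers follow deposit order.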

Additional observations from a re-analysis of the deposited data

Results flagged for a closer look

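Dixon's test at the 95% level was run on 30 groups of 4 to 10 arrays, and chance flags about 1 in 20 groups. It set apart 2 values. Ciita in the 5 controls was lowest in control_liver_11M replicate 1, at 4.72, where the others lay between 4.97 and 5.03. Psmb8 in the 14-month tumours was lowest in KO_tumor_14M replicate 4, at 9.56, where the others lay between 10.40 and 10.63. Causes were not tested.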

How the results depend on the processing

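No paired analysis was possible because the labels give no replicate numbers that groups share. With the ages combined, 3657 genes passed, 1368 without both nearly identical controls, and 1814 to 4359 with 1 array left out in turn. All 5 class II members passed, or 4 to 5 with 1 array left out, where the lost call was Ciita in each case. Of the class I processing members and Ubd 4 passed, but 2 after repeated quantile normalisation, 2 with KO_tumor_14M replicates 1 and 2 averaged, and 2 to 4 with 1 array left out. The calls lost there were Psmb9 and Tap1. Labels of KO_tumor_14M replicates 1 and 2 give no animal number, so whether they came from 1 mouse is not known. At 11 months 4 members passed, 2 with those replicates averaged, 0 without both nearly identical controls, 0 with only the 11-month arrays, and 0 to 6 with 1 array left out. At 14 months 8 passed, and 5 to 8 with 1 array left out. Among the members' calls, the direction turned for Tap1, by 2 dim probe sets: -0.27 and -0.39 with the ages combined, and -0.02 and -0.43 at 14 months. Values that had not passed also changed sign at 11 months, for Tap1 by the mean of its probe sets and those 2 sets, and for B2m. The causes were not tested, beyond the fewer arrays of some settings. After the data were seen, a setting without the 3 tumours nearest the controls and the subunit tests with arrays left out were added. In the first, 5467 genes passed, with 5 class II members and 4 of the others. Leaving out the tumours most like the controls can by itself raise such a count. Signal close to background limits Ciita and the controls of Ubd.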
